A study of Mus musculus with 6 samples.

Results

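The 9 genes described here are those of apolipoproteins and of cholesterol efflux under the liver X receptors (LXR): Apoe, Apoc1, Abca1, Abcg1, Pltp, Mylip, Lpl and the receptor genes Nr1h3 and Nr1h2. They were chosen by symbol, and all 9 were found among the 17382 genes of the deposited table. The levels of these genes in each library were known when they were chosen, Apoe having stood out for its spread between libraries, so the levels by library are given as a description. The cells were myeloid cells grown from bone marrow of C57BL/6 mice aged 2 months, cultured for 3 days with 40 ng/mL of M-CSF, the growth factor of macrophages. The 3 libraries labelled knockout came from mice with the genotype PD-L1 flox/flox and lysozyme-Cre, and the 3 of wild type from littermates with PD-L1 flox/flox alone. Both groups therefore carried the floxed alleles, and Cre was present in the knockout group only. Lysozyme-Cre acts in myeloid cells, and other cells of the marrow would keep PD-L1. The design text calls the samples biological triplicates, and each p-value below sets a difference against the spread among these 6 cultures only.

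LXR alpha (Nr1h3) and LXR beta (Nr1h2) are nuclear receptors that bind DNA together with a retinoid X receptor and are switched on by oxysterols, the oxidised products of cholesterol. In macrophages loaded with cholesterol they raise the transporters Abca1 and Abcg1, which pass cholesterol out of the cell, the apolipoproteins that take it up, and Mylip, which limits the uptake of lipoproteins. Apoe, Apoc1, Pltp and Lpl are also known LXR target genes of macrophages.

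Depth, read from the deposited values, lay between 52.4 and 77.3 (units of 1000000 reads) for the 6 libraries. Cd274, which encodes PD-L1, was at 19.3, 19.2 and 29.2 TPM under the knockout label, against 17.9, 15.5 and 23.7 TPM under that of wild type, so it was not lower under the knockout label. TPM values are read counts corrected for the length of the gene, made to sum to 1000000 in a library. Lyz2, the lysozyme gene into which this Cre is commonly inserted, had 19101, 19354 and 13232 TPM under the knockout label, and 26707, 27493 and 40358 TPM under that of wild type. The groups did not overlap, as was so for 5.12% of all genes tested, and the log2 difference of Lyz2 was -0.87 ± 0.27 (SE; limma adjusted p = 1). Cd274 was thus not lower under the knockout label, whereas Lyz2 was. Both are levels over a whole gene, and whether the labels hold was not tested. Knockout 1 to 3 below means the libraries labelled so. Of 8 macrophage markers all were measured, and the F4/80 gene (Emr1 in the table) had 725 to 1068 TPM and Csf1r, the M-CSF receptor gene, 815 to 1525 TPM. Neutrophil markers were also abundant, at a summed 5733 to 8320 TPM over 7 genes.

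The order of the 9 genes over the libraries was read against that of Apoe. The set of 3 libraries compared is the one highest for Apoe, so Apoe has this order by choice. In 5 of the 9 genes, Apoe, Apoc1, Pltp, Abca1 and Mylip, the 3 highest libraries were knockout 1, knockout 2 and wild type 3. In Lpl these were the 3 lowest libraries. Each genotype thus held libraries of both kinds. Abcg1, Nr1h2 and Nr1h3 had other orders. The same 3 libraries were the highest for 22.7% and the lowest for 24.6% of the 13722 genes tested, so the order itself is common in these data. Apoe, Apoc1 and Pltp differed from most genes in the size of the swing. In bulk samples, fewer cells of a type and less RNA per cell cannot be told apart.

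Apoe encodes apolipoprotein E, which macrophages secrete and which carries lipid to lipoprotein receptors. In mm10 the gene spans 19696244 to 19699166 of chromosome 7, minus strand. The Apoe level was 4066, 2945 and 581 TPM in knockout 1, 2 and 3 and 1065, 1206 and 4842 TPM in wild type 1, 2 and 3. Wild type 3 was the highest library and knockout 3 the lowest, at 8.33-fold less, and the ranges of the groups overlapped in part. By TPM Apoe ranked from 11th among all genes in wild type 3 to 214th in knockout 3. It took 0.246% of all reads in the former and 0.0291% in the latter, or 173389 and 17640 reads, so counting error is small beside this difference. The log2 range over libraries was 3.06. Among 105 genes with a mean of at least 1000 TPM it was the largest, and the next, of Sepp1, was 1.89. Among 11651 genes with a mean of at least 1 TPM, 99.5% had a smaller range.

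Apoc1, a small apolipoprotein gene next to Apoe, was at the edge of detection. It lies from 19689480 to 19692659 on the same strand, 3584 bases beyond the 3′ end of Apoe. It had 25, 31 and 3 reads in knockout 1, 2 and 3 and 5, 15 and 40 reads in wild type 1, 2 and 3, which is 1.52, 2.04 and 0.223 TPM and 0.426, 0.870 and 2.52 TPM. The highest library, wild type 3, and the lowest, knockout 3, were the same as for Apoe. Their ratio was 11.3, with a 95% interval from 3.60 to 57.1 (exact binomial, counting error only). The place of Apoc1 among genes with the order of Apoe is less sure. It rests on knockout 1 lying above wild type 2. Their 95% intervals for counting error (Poisson), 16.2 to 36.9 and 8.4 to 24.7 reads, overlap. For 1 Apoc1 read there were 3128 to 6023 Apoe reads. Both genes lie on the same strand, so strand alone would not separate reads running on from Apoe. Whether such reads add to the Apoc1 value was not tested.

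Of 11 tested neighbours of Apoe and Apoc1, 5 had the same 3 highest libraries as Apoe (Apoc2, Pvrl2, Relb, Bcl3 and Ppp1r37). In 1, Tomm40, these were the lowest. Over all genes tested the shares were 22.7% and 24.6%. Apoc2, the cofactor of lipoprotein lipase, lies on the same strand, with its start 18302 bases beyond the 3′ end of Apoe. It had 42.8, 43.6 and 16.8 TPM in knockout 1, 2 and 3 and 20.7, 21.6 and 54.8 TPM in wild type. Its highest and lowest libraries were again wild type 3 and knockout 3, and the ratio of Apoe to Apoc2 TPM was 34.6 in knockout 3 and 88.4 in wild type 3. Apoc4, between Apoc1 and Apoc2, reached at most 0.54 TPM. Tomm40, a gene of the mitochondrial import pore that lies 2146 bases before the start of Apoe, had 63.3, 60.7 and 84.0 TPM in knockout against 92.9, 87.8 and 53.4 TPM in wild type. For Tomm40, knockout 1, 2 and wild type 3 were thus the lowest libraries. Pvrl2, an adhesion gene next beyond Tomm40, again had the order of Apoe, with 6.00, 5.47 and 3.49 TPM in knockout against 2.92, 3.67 and 5.83 TPM in wild type.

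Pltp encodes the phospholipid transfer protein, which moves phospholipid between lipoproteins. The gene spans 164839518 to 164857708 of chromosome 2, minus strand. Its transcript stood at 118, 86.4 and 41.5 TPM in knockout 1, 2 and 3 and 51.8, 29.2 and 117 TPM in wild type 1, 2 and 3. Knockout 1 and wild type 3 were nearly equal, and wild type 2 was lowest, at 4.04-fold less than knockout 1. The log2 range of 2.01 was larger than that of 98.2% of the genes with a mean of at least 1 TPM.

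Abca1 encodes the transporter that loads cholesterol onto lipid-poor apolipoproteins, the first step of efflux. The gene spans 53030789 to 53159895 of chromosome 4, minus strand. Its transcript stood at 115, 101 and 76.6 TPM in knockout 1, 2 and 3 and 74.9, 60.2 and 115 TPM in wild type 1, 2 and 3. The highest library was 1.92-fold above the lowest, a much narrower swing than that of Apoe. Abcg1, the transporter that passes cholesterol to mature HDL particles, lies on chromosome 17 from 31057694 to 31117981. It had 54.1, 49.5 and 53.6 TPM in knockout against 46.2, 35.7 and 54.2 TPM in wild type. Knockout 3, low for Apoe and Abca1, was among the high libraries for Abcg1, and wild type 2 alone lay well below the rest. Abca1 was 1.43 to 2.13 times Abcg1 in TPM, with the lowest ratio in knockout 3 and the highest in wild type 3.

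The bases before the starts of Apoe, Pltp and Abca1, the genes with the widest swings that have an entry, are shown. Whether LXR controls these genes in these cultures was not tested. They come from RefSeq, build GRCm38.p6, the same assembly as mm10, and 6 of the 9 genes matched the table: Apoe, Abca1, Nr1h2, Nr1h3, Mylip and Pltp. Each runs 250 bases up to the first annotated start, 5′ to 3′ on the minus strand: chr7:19699189-19699438 for Apoe, chr2:164857709-164857958 for Pltp and chr4:53159896-53160145 for Abca1. Capitals mark a match to a DR4 element, the form of site that LXR binds, or a single half-site.
Apoe: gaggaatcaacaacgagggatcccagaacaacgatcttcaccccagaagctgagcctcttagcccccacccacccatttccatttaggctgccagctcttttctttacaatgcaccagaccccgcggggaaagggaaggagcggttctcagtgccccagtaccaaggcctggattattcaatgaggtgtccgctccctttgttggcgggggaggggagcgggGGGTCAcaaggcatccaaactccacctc
Pltp: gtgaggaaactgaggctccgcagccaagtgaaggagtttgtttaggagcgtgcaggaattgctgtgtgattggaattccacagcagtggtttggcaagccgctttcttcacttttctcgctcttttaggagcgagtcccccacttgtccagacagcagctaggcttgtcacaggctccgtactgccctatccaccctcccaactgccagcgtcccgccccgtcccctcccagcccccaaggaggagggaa
Abca1: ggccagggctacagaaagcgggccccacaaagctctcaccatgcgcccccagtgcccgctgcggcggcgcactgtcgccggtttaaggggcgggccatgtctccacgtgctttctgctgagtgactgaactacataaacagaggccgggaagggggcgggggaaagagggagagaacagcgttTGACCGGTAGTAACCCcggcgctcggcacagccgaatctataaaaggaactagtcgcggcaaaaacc
The DR4 search used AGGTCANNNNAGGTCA on both strands with at most 3 mismatches in its 12 set letters, and the half-site search used AGGTCA and GGGTCA, exact, on both strands; a DR4 match can contain a half-site. The Abca1 window held the DR4 match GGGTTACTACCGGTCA on the opposite strand, with 3 mismatches, 67 to 52 bases before the start. No other matched gene held one, and 18.5% of 32536 windows of that length did. The Apoe start used here was 1 of 3 in RefSeq and lay 22 bases upstream of the gene start given above. The Apoe window held 1 half-site, GGGTCA, 28 to 23 bases before the RefSeq start, and 23.9% of windows held 1 or more. These matches describe letters only, and binding was not measured.

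Mylip encodes a ubiquitin ligase, also called IDOL, that limits the uptake of lipoproteins. The gene spans 45389742 to 45411940 of chromosome 13, plus strand. Its transcript stood at 45.3, 45.8 and 36.3 TPM in knockout 1, 2 and 3 and 36.4, 31.1 and 50.6 TPM in wild type 1, 2 and 3. Wild type 3 was highest and wild type 2 lowest, 1.63-fold apart. After centring, its log2 values lay closest to those of Abca1, with a root mean square difference of 0.12 over the 6 libraries, against 0.92 from Apoe. Abcg1 and Nr1h2, which had other orders, were nearly as close (0.16 and 0.19). The distance thus also reflects the size of the swing.

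Lpl ran the other way. It encodes lipoprotein lipase, which splits triglyceride carried by lipoproteins, and spans 68880555 to 68906932 of chromosome 8, plus strand. Its transcript stood at 2136, 2360 and 3444 TPM in knockout 1, 2 and 3 and 3382, 3439 and 2153 TPM in wild type 1, 2 and 3. The 3 lower libraries lay within 2136 to 2360 TPM and the 3 higher within 3382 to 3444 TPM. Apoe transcripts outnumbered those of Lpl by 1.90, 1.25 and 2.25 times in knockout 1, knockout 2 and wild type 3. The ratio was 0.169, 0.315 and 0.351 in knockout 3, wild type 1 and wild type 2, so the order of the 2 most abundant of the 9 genes depended on the library. Gpihbp1, which holds the enzyme at the capillary wall, was at 0 in 5 libraries and at 0.05 TPM in the remaining one, and the lipase inhibitor gene Angptl4 had 1.59 to 2.53 TPM.

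The receptor genes did not share the order of Apoe. Nr1h2, on chromosome 7 from 44549616 to 44553965, had 81.6, 58.8 and 61.3 TPM in knockout 1, 2 and 3 and 63.0, 55.6 and 70.6 TPM in wild type 1, 2 and 3. Nr1h3, on chromosome 2 from 91184061 to 91195116, had 14.7, 13.0 and 11.2 TPM in knockout against 14.5, 18.0 and 15.4 TPM in wild type. Nr1h2 was the more abundant receptor transcript in each library, by 3.09 to 5.56 times. Nr1h3 was highest in wild type 2, the library lowest for Abca1, Abcg1, Pltp, Mylip and Nr1h2. The highest library exceeded the lowest by 1.47-fold for Nr1h2 and 1.61-fold for Nr1h3, beside a median of 1.33-fold over genes with a mean of at least 1 TPM. The log2 range of Nr1h3, 0.68, was near those of Lpl (0.69) and Mylip (0.70).

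**Figure D1:**
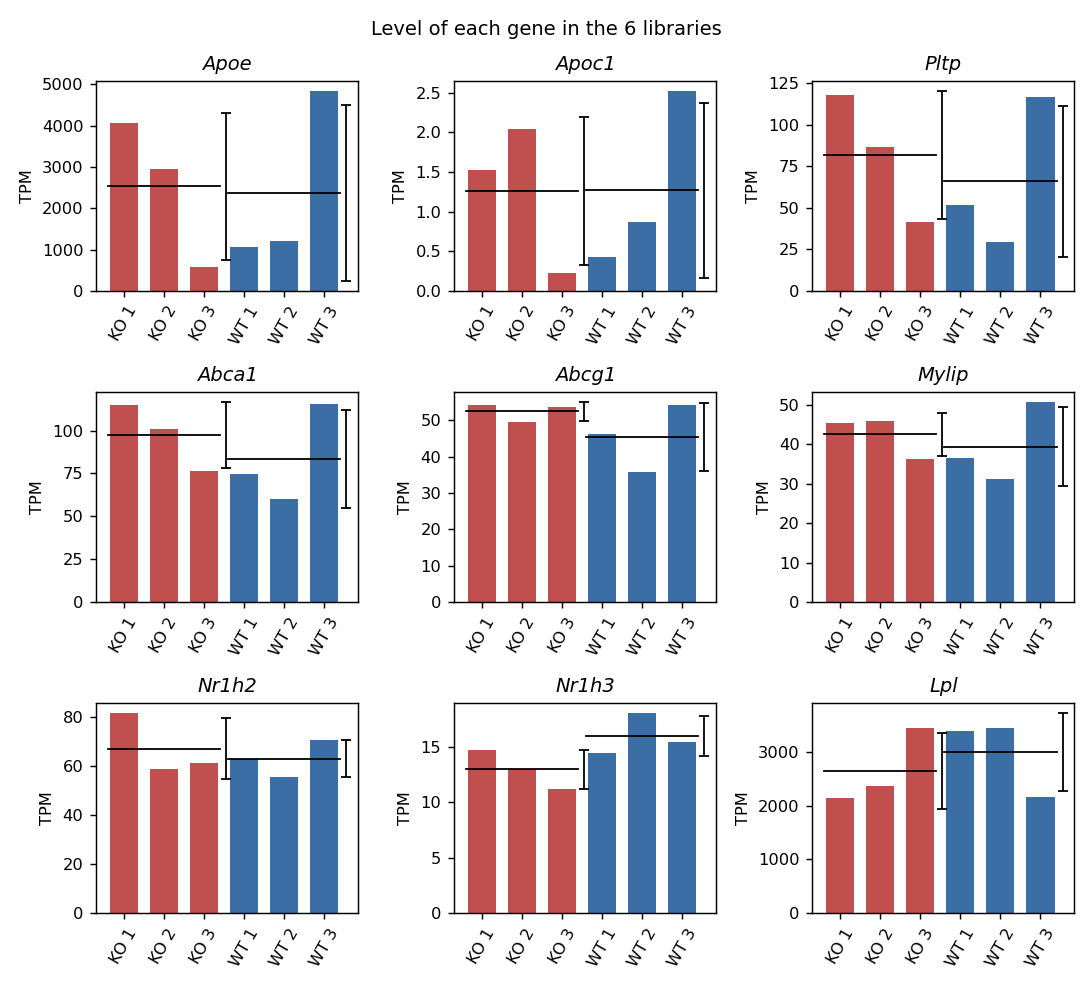
Level in TPM (vertical axes, each from 0) of the 9 genes in the 6 libraries; red bars are libraries labelled knockout (KO), blue bars wild type (WT), lines the group means and error bars the SD of 3 libraries. Apoe, Apoc1, Pltp, Abca1 and Mylip are high in KO 1, KO 2 and WT 3, and Lpl is low there.

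Ordered by mean TPM over the 6 libraries, which compares genes per length, Lpl (2819 ± 665, SD) and Apoe (2451 ± 1763) came first, then Abca1 (90.4 ± 23.1), Pltp (73.9 ± 38.7), Nr1h2 (65.2 ± 9.5), Abcg1 (48.9 ± 7.2), Mylip (40.9 ± 7.4), Nr1h3 (14.5 ± 2.3) and Apoc1 (1.27 ± 0.92). Neighbours in this order whose ranges over the libraries overlapped were Lpl and Apoe, Abca1 and Pltp, Pltp and Nr1h2, and Abcg1 and Mylip. The last pair kept its order in all 6 libraries, whereas Lpl exceeded Apoe, and Pltp exceeded Nr1h2, in 3 of 6.

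**Figure D2:**
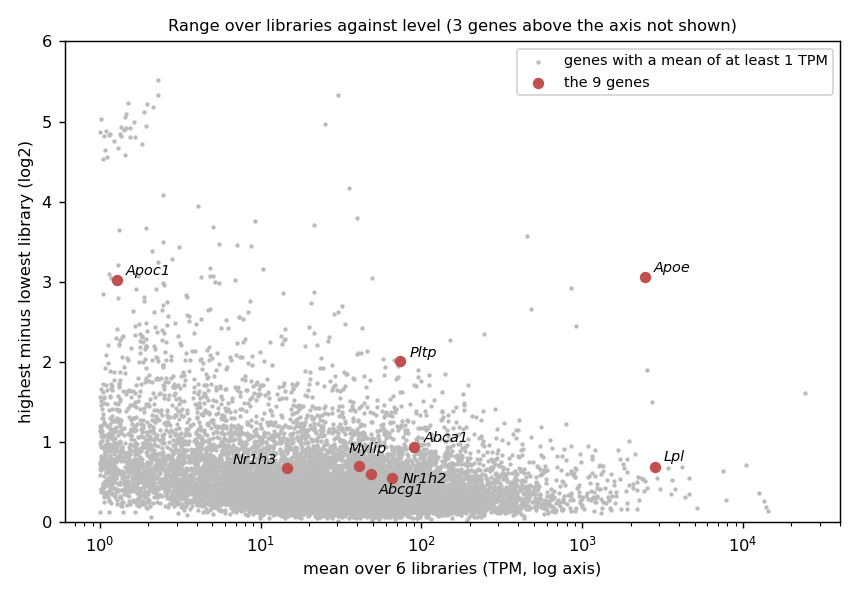
Highest minus lowest library in log2(TPM + 0.1) (vertical axis) against the mean over 6 libraries (horizontal, log axis) for 11651 genes with a mean of at least 1 TPM (grey; 3 lie above the axis) and the 9 genes (red). Apoe, at 3.06, lies above the other genes with a mean of at least 1000 TPM, whose largest value is 1.89, and Nr1h2 and Nr1h3 lie at 0.55 and 0.68.

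Between genotypes, the comparison the study was designed for, none of the 9 genes passed. Genotype was tested with limma on log2(TPM + 0.1) over 13722 genes with Benjamini-Hochberg adjustment; 0 genes passed at an adjusted p under 0.05, which is 0% of those tested, and no gene had an adjusted p below 0.341. Without adjustment 299 genes (2.18%) fell under 0.05, and 0 of the 9 did. The groups did not overlap for 0 of the 9 genes and for 5.12% of all genes. By the tests in the authors' deposited table none of the 9 (0) is called, with adjusted p-values of 1, where 0.265% of the 17382 genes are.

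For Apoe the log2 difference, libraries labelled knockout minus wild type, was 0.05 ± 0.87 (SE; limma adjusted p = 1), from means of 2531 ± 1779 and 2371 ± 2141 TPM (SD, n = 3 each). Of the variance of its log2 values over libraries, 0.0590% lay between the genotypes. The differences were 0.42 ± 0.57 for Pltp, 0.25 ± 0.26 for Abca1, 0.23 ± 0.15 for Abcg1, 0.13 ± 0.19 for Mylip and 0.08 ± 0.15 for Nr1h2. They were -0.08 ± 0.86 for Apoc1, -0.18 ± 0.26 for Lpl and -0.30 ± 0.14 for Nr1h3, all with a limma adjusted p of 1. Nr1h3 had the smallest unadjusted p (limma, 0.0714) and the largest share of variance between genotypes, 51.9%, with means of 13.0 ± 1.7 TPM for the knockout label and 15.98 ± 1.8 TPM for wild type (SD, 3 libraries each); knockout 1 (14.7) lay above wild type 1 (14.5). Abcg1 followed with 28.6%, and the median over all genes tested was 6.26%. The median difference of the 9 genes was 0.08, beside 0.00 over all genes tested.

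The direction of Apoe rested on single libraries. Its difference was -0.49 without knockout 1, -0.26 without knockout 2, -0.34 without wild type 1 and -0.25 without wild type 2, and 0.91 was the highest value with 1 library left out. Apoc1 turned to 0.76 without knockout 3 and 0.54 without wild type 3, and Pltp to -0.05, Mylip to -0.02 and Nr1h2 to -0.01 without wild type 2, and Nr1h2 to -0.07 without knockout 1. Abca1, Abcg1, Nr1h3 and Lpl kept their sign whichever library was left out. When the first principal component of 13568 genes outside the lists used here was added as a covariate, the SE for Apoe fell from 0.87 to 0.11 and its difference became -0.22 (limma adjusted p = 0.98). The same covariate lowered the SE from 0.26 to 0.08 for Lpl and from 0.26 to 0.11 for Abca1, whereas for Nr1h3 it went from 0.14 to 0.12 and for Abcg1 from 0.15 to 0.14. This component held 44.3% of the variance, and its scores were -22.9, -17.3 and 31.4 in knockout 1, 2 and 3 and 19.6, 19.0 and -29.9 in wild type. It thus split the libraries as Apoe, Abca1 and, in reverse, Lpl did. The fall in SE for these genes follows from that split and is not a separate result.

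**Figure D3:**
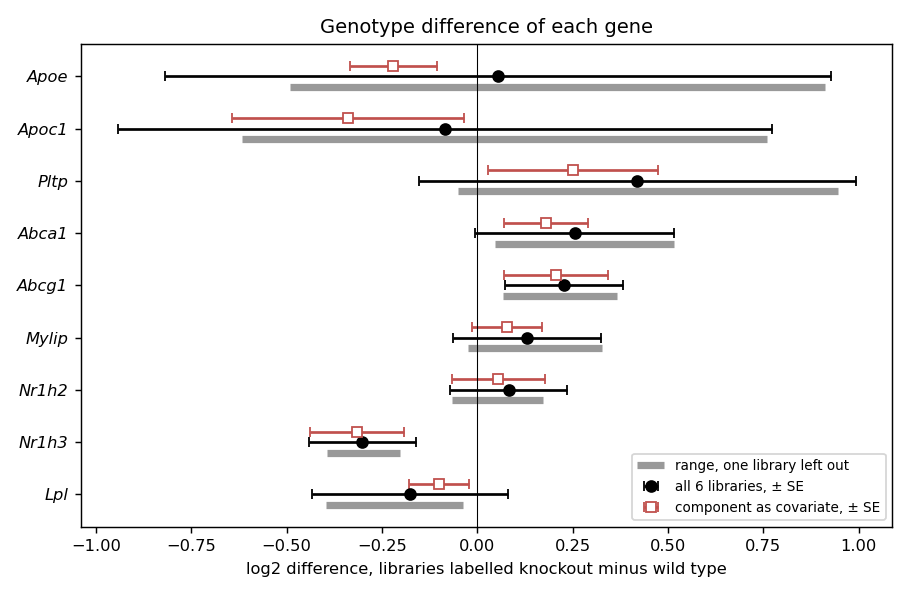
Log2 difference between libraries labelled knockout and wild type (horizontal axis) for the 9 genes: black circles are the fit to 6 libraries ± SE, grey bars the range with each library left out in turn, and open red squares the fit with the first component as a covariate ± SE. The SE of Apoe shrinks from 0.87 to 0.11 with the covariate, which splits the libraries as Apoe does.

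Other genes of the pathway were read from lists chosen for their roles. Among the receptors' partners and corepressors, 0 of 13 tested genes passed in either direction, with a median log2 difference of -0.03. In 4 of the 13 the 3 highest libraries were those of Apoe, and in 4 these were the lowest. Over all genes tested the shares were 22.7% and 24.6%. The retinoid X receptor genes Rxra and Rxrb had the order of Apoe with a smaller swing. Rxra had 63.5, 59.3 and 41.4 TPM in knockout 1, 2 and 3 and 46.6, 55.5 and 69.3 TPM in wild type. Rxrb had 43.6, 39.5 and 27.6 TPM against 32.8, 30.3 and 47.6 TPM. The corepressor gene Ncor1, lowest in the libraries highest for Apoe, stayed within 56.9 to 59.5 TPM.

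Of 17 other LXR target genes tested, 0 passed, and the median difference was 0.05. In 4 of them, Apoc2, Smpdl3a, Arl4c and Mertk, the 3 highest libraries were those of Apoe, beside 22.7% of all genes tested. In 2, Fasn and Plin2, these libraries were the lowest, beside 24.6% of all genes tested. These genes other than Apoc2, and Tomm40, Bcl3 and Ppp1r37 above and Cyp27a1, Nceh1, Soat2, Osbp and Osbpl8 below, are named after their values were seen. Arl4c, a small GTPase gene, had 65.7, 57.6 and 35.9 TPM in knockout 1, 2 and 3 and 41.5, 32.9 and 60.9 TPM in wild type. Mertk, the receptor for dying cells, had 98.0, 90.8 and 52.6 TPM and 59.8, 72.0 and 107 TPM in the same order of libraries. Plin2, which coats lipid droplets, had 602, 580 and 1041 TPM in knockout against 918, 904 and 552 TPM in wild type, the order of Lpl. The LXR targets of fatty acid synthesis did not share one order. Srebf1, their transcription factor, had 66.7, 53.8 and 75.2 TPM in knockout against 76.2, 57.5 and 55.4 TPM in wild type. Scd1, a desaturase gene, had 58.2, 64.4 and 106 TPM in knockout against 88.8, 40.2 and 54.5 TPM in wild type.

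Of 17 genes that make oxysterols or handle cholesterol within the cell, 0 passed, with a median difference of 0.04. In 4 (Cyp27a1, Npc1, Npc2 and Soat1) the 3 highest libraries were those of Apoe. In 4 (Nceh1, Soat2, Osbp and Osbpl8) these were the lowest. Over all genes tested the shares were 22.7% and 24.6%, close to those of this list. Cyp27a1, the mitochondrial enzyme that makes an oxysterol, had 60.1, 52.0 and 16.6 TPM in knockout 1, 2 and 3 and 21.0, 20.8 and 71.9 TPM in wild type, 4.34-fold between the highest library, wild type 3, and the lowest, knockout 3. The lysosomal cholesterol carriers Npc1 and Npc2 followed the same order within a factor of 1.19 and 1.21. Soat2, a cholesterol esterifying enzyme of low level here, ran the other way, with 1.59, 2.09 and 7.69 TPM in knockout against 3.15, 2.34 and 2.20 TPM in wild type. Its range was set by knockout 3, 4.84-fold above knockout 1. Lists of 14 lipoprotein and lipid receptors and of 16 lipase partners and fatty acid genes had 0 that passed and median differences of -0.06 and -0.01. Scarb1, a receptor for HDL, had 149 to 179 TPM. Of the 11 further apolipoprotein genes tested, 0 passed, with a median of 0.07, and Apoc2 was the one with the order of Apoe. Apart from it, Apobr, a receptor gene, Apool and Clu, the tested genes of that list reached at most 1.36 TPM. The genes of each list with the smallest p-values, none past the threshold after adjustment over all genes, had the following log2 differences (SE). For further apolipoproteins these were Clu -0.40 ± 0.18, Apol9b 0.62 ± 0.34, Apod -0.33 ± 0.37 and Apof 0.22 ± 0.28. For partners and corepressors they were Tbl1xr1 0.07 ± 0.09, Ncoa1 0.08 ± 0.10, Gps2 -0.06 ± 0.07 and Tbl1x -0.06 ± 0.11. Tbl1xr1, Tbl1x and Gps2 are parts of the corepressor complex that holds Ncor1. Among LXR targets they were Mlxipl -0.38 ± 0.23, Lpcat3 0.10 ± 0.10, Scd1 0.34 ± 0.34 and Scd2 0.25 ± 0.24. Oxysterol and cholesterol genes gave Abca2 -0.15 ± 0.12, Soat1 0.12 ± 0.11, Npc2 0.11 ± 0.11 and Gramd1b 0.13 ± 0.15. Soat1 esterifies cholesterol for storage, and Npc2 carries it out of lysosomes. Receptors gave Lrp1 -0.19 ± 0.10, Olr1 0.27 ± 0.16 and Vldlr 0.25 ± 0.23. Lipase partners and fatty acid genes gave Pparg -0.19 ± 0.10, Fabp5 0.32 ± 0.18 and Fabp4 0.16 ± 0.11. Lrp1 takes up particles that carry apolipoprotein E, and Pparg is a nuclear receptor for fatty acids. Neighbours of Apoe, with a median of 0.03 over 11 genes, gave Pvrl2 0.28 ± 0.31, Relb 0.25 ± 0.30, Clptm1 -0.07 ± 0.10 and Bcam -0.18 ± 0.27.

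**Figure D4:**
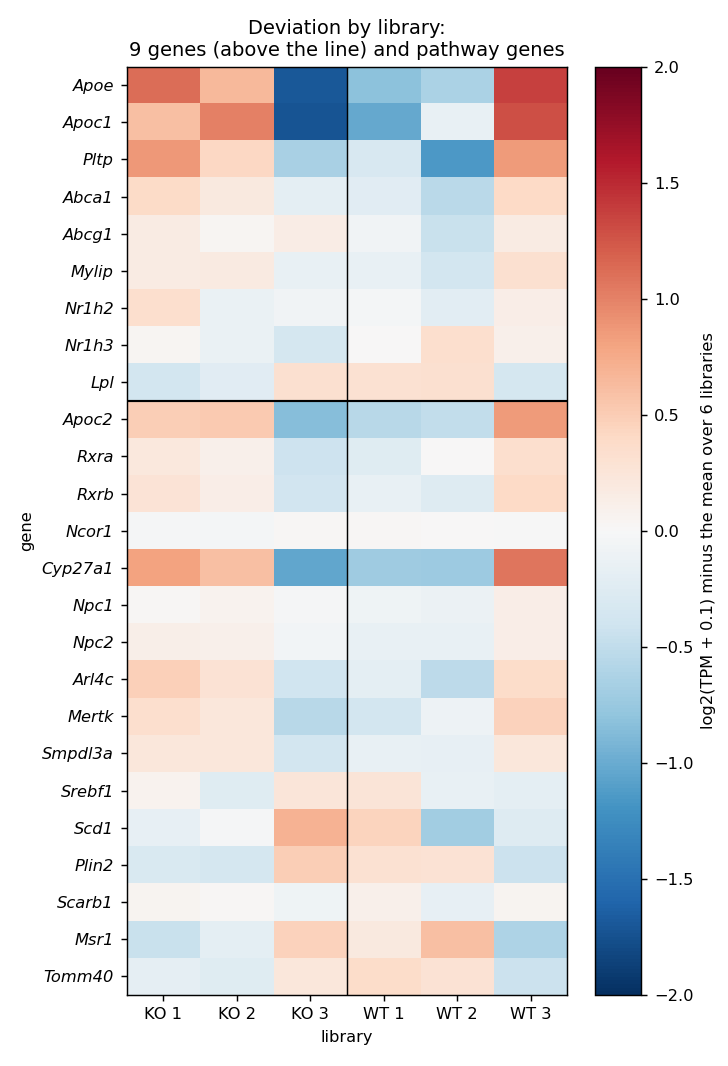
Log2(TPM + 0.1) minus the mean over 6 libraries (colour, red high, blue low) for the 9 genes (above the line) and 16 pathway or neighbouring genes in each library. Apoe, Apoc1, Pltp, Apoc2 and Cyp27a1 are red in KO 1, KO 2 and WT 3, Lpl, Plin2 and Msr1 are blue there, and Ncor1 is nearly white throughout.

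The genes whose centred log2 values lay closest to Apoe over the 6 libraries, among protein-coding genes with a mean of at least 5 TPM, were Ccl24, Cd83, Tmem176a, Abca9 and Cd4, with root mean square differences of 0.21, 0.25, 0.28, 0.28 and 0.29. Ccl24, an eotaxin gene, had 8.80, 7.16 and 0.959 TPM in knockout 1, 2 and 3 and 2.42, 2.82 and 8.16 TPM in wild type. Abca9, a transporter gene of the same class as Abca1, had 47.2, 44.1 and 10.1 TPM in knockout against 20.0, 21.3 and 56.6 TPM in wild type. Closest to Abca1 were Arid5a, Rras and Birc3 (0.05 each), closest to Pltp were Usp35, Clec10a and Peli2 (0.16, 0.16 and 0.17), and closest to Lpl were Noc2l, Dph2 and Rcl1 (0.03, 0.03 and 0.04). Noc2l had 89.2, 93.8 and 137 TPM in knockout against 136, 137 and 84.4 TPM in wild type. These distances are a description over 6 libraries.

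The summed levels of 3 abundant marker lists had the order of Apoe, although most genes in them did not. The summed macrophage markers, with 8 of 8 tested, were 5743, 5675 and 4535 TPM in knockout 1, 2 and 3 and 5437, 4827 and 5929 TPM in wild type, highest in the 3 libraries that were highest for Apoe. The 7 neutrophil markers summed to 7987, 7673 and 6910 TPM in knockout against 7079, 5733 and 8320 TPM in wild type, again with the same 3 libraries highest, and so did the 4 megakaryocyte markers (1102, 1139 and 783, and 1037, 960 and 1053 TPM). Csf1r had 1448, 1355 and 815 TPM in knockout against 1047, 1042 and 1525 TPM in wild type. The ratio of highest to lowest library was 1.87 for Csf1r and 8.33 for Apoe. Erythroid and stromal marker sums were lowest in those 3 libraries, at 27.1 to 42.8 and 3.03 to 3.83 TPM. The same 3 libraries were highest for 3 of 8 macrophage genes (Mertk, Csf1r and Emr1), 3 of 7 neutrophil genes (S100a8, S100a9 and Ltf) and 1 of 4 megakaryocyte genes (Pf4). They were lowest for 2 of 4 erythroid and 1 of 5 tested stromal genes. Over all genes tested they were highest for 22.7% and lowest for 24.6%. The sums for monocyte, dendritic cell, osteoclast, T and NK cell and B cell markers had other orders. The part of these cell types in the order of the 9 genes was not tested. The adipocyte genes Adipoq, Plin1 and Cfd and the hepatocyte genes Alb, Ttr and Apoa1, of cell types rich in Lpl or Apoe, were each at 0 in at least 1 library and at most 0.14 TPM.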

How the data were processed

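RNA of 6 cultures was sequenced from strand-specific total RNA libraries, per the labels' protocols. Listed in the submitters' processing notes are build mm10, edgeR, featureCounts, Subread, Picard 1.127, TopHat2 2.0.12 and FastQC 0.11.2; their roles and options, and the annotation, are not stated there. TPM per library was deposited by the authors (the values sum to 1000000). Per the file headers it adds a likelihood ratio score, p-values, log2 CPM means and log2 fold changes from the authors' own test.

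Whole reads were recovered, within 0.01 of a read, for 100% of 94034 values above 0, from the fractions between libraries of a gene's TPM; for 427 genes the common factor came from the authors' mean log2 CPM. Genotype was tested with limma 3.58.1 (R 4.3.3; mean-variance trend, two-sided, Benjamini-Hochberg) on log2(TPM + 0.1), a scale that understates changes of low genes, for 13722 genes with at least 0.1 TPM in 3 or more libraries. Scripts were tested on simulated data. The members, the pathway and marker lists and the tests were chosen with earlier results of these data known. Named are the 9 genes, Cd274, pathway partners, genes closest in pattern by a fixed distance, abundant markers, and a few noted as chosen after their values were seen; some genes that this rule names are not reported here. Alternatives changed the pseudocount, filter, scaling, model, covariates or libraries. Same-numbered libraries of the 2 groups did not deviate together (correlations of -0.24, -0.15 and -0.53). These are deviations from means of 3 libraries, so they cannot decide whether the numbers pair the cultures.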

Additional observations from a re-analysis of the deposited data

How the results depend on the processing

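No gene of the 13722 passed at an adjusted p under 0.05 under any of the 16 alternatives, and 168 to 1017 genes had an unadjusted p under 0.05, the highest number without wild type 3 and the lowest with the filter of 1 TPM. With the replicate block, in which the number in the label enters the fit, 0 genes passed and 232 had an unadjusted p under 0.05, and the Apoe difference was 0.05 ± 1.06. Over 144 refits of the 9 genes the sign stayed in 133, and the lowest adjusted p was 0.655 (limma). With all libraries 1 sign turned, that of Apoe to -0.22 with the first component as covariate; the cause was not tested. With 1 library left out, differences ranged from -0.49 to 0.91 for Apoe, -0.62 to 0.76 for Apoc1, -0.0656 to 0.17 for Nr1h2, -0.0249 to 0.33 for Mylip, -0.0511 to 0.95 for Pltp, 0.05 to 0.52 for Abca1, 0.07 to 0.37 for Abcg1, -0.39 to -0.20 for Nr1h3 and -0.40 to -0.04 for Lpl. Quantile normalization and median centring moved no log2 range over libraries by more than the spread within genotypes. That spread holds the swing between libraries itself, so this is a loose limit. The range of Lpl went from 0.69 to 0.92 with quantile normalization. Library medians differed by at most 0.04. Depth limits Apoc1, at 3 to 40 reads, and no other of the 9 genes, which had at least 555 reads per library.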
